A study of Mus musculus with 26 samples.

Results

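The gene expression of Prdm14-/- mouse embryonic stem cells (mESCs) was compared with that of the same cells after Prdm14 had been put back. The comparison used 4 of 15 RNA-seq libraries (26 samples in all), namely Prdm14-/- clones G6 and F10, and the FH-Prdm14 rescue of each of them, chosen by their labels and paired by clone. Of the 24015 genes in the files, the 12635 with at least 1 RPKM (a read density, corrected for the length of the gene and the depth of the library) in at least 2 of these 4 libraries were tested.

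Prdm14 is a zinc finger protein with a PR domain that binds DNA and is expressed in pluripotent cells and early germ cells. In mESCs it is known for holding cells in the naive state, in which they resemble the epiblast before implantation, and for restraining Fgf receptor signalling and the de novo DNA methyltransferases. It works with Mtgr1, the product of Cbfa2t2, a corepressor of the ETO family. Naive cells that move on first reach a formative state, marked by Fgf5, Pou3f1 (Oct6) and Dnmt3b, and mESCs can also stray towards primitive endoderm, trophoblast or, in rare cells, the state of the 2-cell embryo.

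All lines came from a mESC line with a Stella:GFP reporter. G6 and F10 are single clones made with CRISPR-Cas9 against Prdm14, the FH-Prdm14 lines are these clones with a FLAG-HA-tagged Prdm14 cDNA, and the E294K lines are the same clones with a tagged Prdm14 carrying the E294K substitution. The cells were isolated and kept in 2i+LIF, which blocks MEK and GSK3, and then spent 5 days without feeders in serum+LIF before RNA was taken. For side-by-side values, 1 library of wt cells in serum+LIF, 2 of wt cells in 2i+LIF, 2 of the E294K lines, and 6 of Mtgr1 lines were read (knockout and FH-Mtgr1 rescue of each of A3, C1 and C3). Nothing in the labels says that libraries of 1 condition were separate experiments beyond the clone, so that the p-values measure the spread between these libraries.

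The Prdm14-/- libraries held 11596927 (G6) and 12837966 (F10) reads on genes and the FH-Prdm14 libraries 12847489 and 14460382, within the range of all RNA-seq libraries (10668572 to 21218414). Below, paired values are given for clone G6 first and F10 second, and a log2 difference is that of log2(RPKM + 0.5), Prdm14-/- minus FH-Prdm14, with its standard error (SE). On this scale the change of genes with low values is understated. A gene was called when its adjusted p was under 0.05 in limma with Benjamini-Hochberg adjustment, fitted over all 15 RNA-seq libraries with the clone as a block.

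Prdm14 itself (chromosome 1, 13103538 to 13117244 in mm9) was at 1.96 and 3.60 RPKM in Prdm14-/- cells and 116 and 79.8 RPKM in FH-Prdm14 cells, a log2 difference of -4.93 (SE 0.36, adjusted p = 0.000136 in limma). The Prdm14-/- values lay on both sides of the 2.77 RPKM of wt serum+LIF cells. The mutant alleles still give an aberrant transcript, so that this level is no test of the knockout. The rescue was far above both wt conditions, as wt cells in 2i+LIF had 30.8 and 19.12 RPKM, and near the 104.99 and 89.9 RPKM of the E294K lines. The comparison is therefore one of cells without Prdm14 with cells that hold more of its RNA than wt cells did in either medium. Cbfa2t2 was also lower in Prdm14-/- cells, at 16.6 and 16.8 RPKM against 27.4 and 30.3 RPKM (log2 difference -0.77, SE 0.14), below the 40.7 RPKM of wt cells in serum+LIF.

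Some libraries stood apart in ways the conditions do not name. The Y-linked gene Ddx3y was at 0.595 RPKM in Prdm14-/- G6 but at 5.42 in Prdm14-/- F10, and at 1.69 and 1.74 in the FH-Prdm14 libraries. The rescues thus did not show the difference between the knockout clones, and the pairing by G6 and F10 rests on the labels. In the Mtgr1 lines Ddx3y was at 0.0104 RPKM in Mtgr1-/- A3 and 8.47 in FH-Mtgr1 A3, and the other way round for C1 (10.5 and 0.0406). The clone labels A3 and C1 thus go against each other there. The RNA Rmrp was between 11.3 and 16.3 RPKM in the 4 compared libraries and at 19.3 in Mtgr1-/- C3, against 106 to 5609 in the other 10, and the summed replication-dependent histones were between 55.2 and 128 RPKM in the 4, 63.1 in Mtgr1-/- C3 and 70.4 in 1 of the wt 2i+LIF libraries, against 377 in wt serum+LIF. The 4 compared libraries lie together in both measures, apart from wt serum+LIF and E294K, which bears on every level set beside wt or E294K cells, and the part of this in those levels was not tested. The Mtgr1 libraries enter the main comparison through the shared spread only, and without them 2276 genes were called in place of 2906.

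Of the 12635 genes tested, 2906 were called (23.0%), 1335 higher (10.6%) and 1571 lower (12.4%) in Prdm14-/- cells. These shares are the background for every list below. With at least a 2-fold difference asked as well, 804 were higher (6.36%) and 846 lower (6.70%). The groups did not overlap for far more genes, 3731 (29.5%) with both Prdm14-/- libraries above both FH-Prdm14 libraries and 5230 (41.4%) below. The filter itself sets the direction of some genes. Those under 1 RPKM in both libraries of a group passed through the other group alone and had to differ, 278 with the knockout high (201 called) and 480 with the rescue high (331 called). Of the genes named below, Fgf5, Wnt8a, Wnt7a, Wnt3, Ankrd1, Dsc2, Col5a2, Dab2, Gata3, Cited1, Adm, Gbp2b and Tgfb1i1 passed through the knockout alone. Dux, Zfp352, Zeb1, Hnf4a, Prmt8, Wnt5a, Wnt11, Ncam1, Rhox1 and Rhox7 passed through the rescue alone. The calls of all these genes, in any fit and kept ones too, are a description. The median difference of all genes was -0.09, and -0.03 after median-of-ratios scaling, which called 1533 genes higher and 1365 lower, so that the balance of directions depended on scaling. An exact permutation test of 2 against 2 libraries cannot go below p = 0.33, so that each call rests on the spread shared across genes and libraries. With 1 of the 4 libraries left out, the number of genes called was 652 without Prdm14-/- G6, 1493 without Prdm14-/- F10, 697 without FH-Prdm14 G6 and 930 without FH-Prdm14 F10. Counts per gene list with 1 library left out are given in that order (without Prdm14-/- G6, Prdm14-/- F10, FH-Prdm14 G6 and FH-Prdm14 F10). The call held in all 4 of these fits for 310 of the higher and 258 of the lower genes.

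The single wt serum+LIF library lay between the groups for 625 of the 1333 called genes that were higher without overlap and for 769 of the 1570 that were lower. It lay outside the range of all 4 libraries, above or below, for 456 of the higher and 507 of the lower genes. These genes were thus at levels in wt cells that neither line showed.

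**Figure D1:**
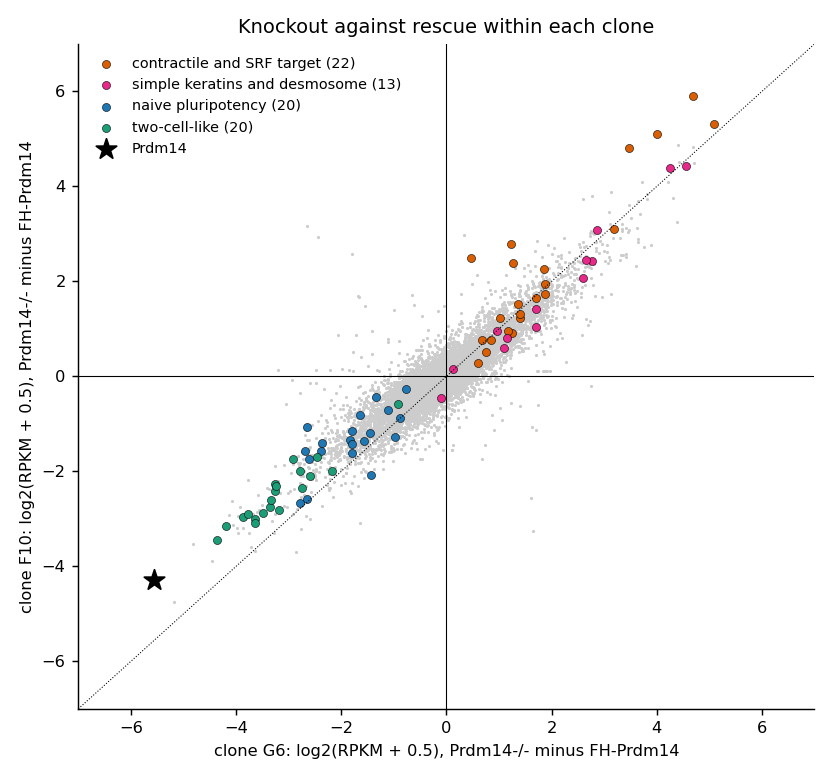
Log2 differences of Prdm14-/- minus FH-Prdm14 within clone G6 (x axis) and clone F10 (y axis), each on log2(RPKM + 0.5), for the 12635 genes tested (grey) and for 4 gene lists (coloured, number of tested members in brackets). Contractile genes and keratins lie at the upper right, with Acta1 reaching a fitted difference of 5.30, and naive and two-cell-like genes at the lower left, next to Prdm14 at -4.93.

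Among the 10 genes with the largest increase were, in order, Acta1, Thbs1, Car4, Gbp2, Tagln, Krt8, Gbp2b, Krt18 and Arl4c, with log2 differences from 5.30 down to 4.15. Acta1, the skeletal muscle alpha-actin (chromosome 8, 126415669 to 126418651 in mm9), was at 95.9 and 117 RPKM in Prdm14-/- and 3.22 and 1.45 RPKM in FH-Prdm14 cells (SE 0.63), and Car4, a carbonic anhydrase of the cell surface, at 209.9 and 156 RPKM against 7.60 and 5.00 RPKM. The others encode a matrix protein (Thbs1), interferon-inducible GTPases (Gbp2 and Gbp2b, whose near-identical sequences can split reads and make both values uncertain), an actin-binding protein (Tagln), simple keratins (Krt8, Krt18) and a small GTPase (Arl4c). The 10 largest decreases were of Gm4971, Prdm14, Gm8994, Khdc3, Sp110, Zscan4a, Smarcd3, Prmt8, D17Ertd648e and Dux, from -4.97 to -3.60. Khdc3, a gene of oocytes and early embryos, was at 6.09 and 18.2 RPKM in Prdm14-/- and 184 and 215 RPKM in FH-Prdm14 cells, Smarcd3, a chromatin remodelling subunit, at 0.950 and 1.22 RPKM against 17.7 and 21.5 RPKM, and Prmt8, an arginine methyltransferase, at 0.465 and 0.968 RPKM against 12.3 and 17.1 RPKM. All of these genes were called in each fit that left out 1 library, which for Gbp2b, Prmt8 and Dux follows in part from the filter.

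Naive pluripotency genes were lower in Prdm14-/- than in FH-Prdm14 cells. Of the 20 markers listed, all tested, 16 fell (12.4% of all genes tested did) and 4 (Klf2, Dppa3, Dppa5a and Zfp57) were not called, with a median difference of -1.60 against -0.09 over all genes. Klf4, a factor that LIF signalling turns on (chromosome 4, 55540013 to 55545347 in mm9), was at 15.8 and 15.6 RPKM in Prdm14-/- and 111 and 101 RPKM in FH-Prdm14 cells, a log2 difference of -2.72 (SE 0.43). The wt serum+LIF library, between both groups, had 28 RPKM. Tbx3, a T-box factor of the same network (chromosome 5, 120120678 to 120134733), was at 10.1 and 10.6 RPKM against 66.5 and 66.1 RPKM (-2.62, SE 0.45) and at 16.9 RPKM in wt cells. For both genes the groups were far apart and the clones close to each other. The orphan receptors Nr5a2 and Nr0b1 differed more between the Prdm14-/- clones, at 1.92 and 3.78 and 7.79 and 16.2 RPKM, against 14.3 and 13.7 and 53.1 and 49.0 RPKM in FH-Prdm14 cells (-2.17 and -2.13). In bulk RNA, fewer cells in the naive state and less RNA per cell cannot be told apart.

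Esrrb, an orphan nuclear receptor of the naive network (chromosome 12, 87702067 to 87862578 in mm9), was at 38.9 and 54.6 RPKM in Prdm14-/- and 139.9 and 139 RPKM in FH-Prdm14 cells (-1.59, SE 0.19). Zfp42 (Rex1), the classic marker of undifferentiated cells, was at 59.1 and 126 RPKM against 306 and 332 RPKM (-1.88, SE 0.37), and Tet2, a dioxygenase that oxidises 5-methylcytosine, at 2.86 and 4.40 RPKM against 9.40 and 12.1 RPKM (-1.46, SE 0.42). In these 3 genes, and in 17 of the 20 markers, Prdm14-/- G6 was the lower of the knockout clones, and the median within G6 was -1.79 against -1.35 within F10. The wt serum+LIF library lay between knockout and rescue for 13 of the 20, below both FH-Prdm14 libraries for 17, and above both groups for Tet2 (17.8 RPKM) and Fgf4 (147 RPKM). With 1 library left out, 3, 12, 6 and 8 markers fell, Esrrb, Tcl1 and Stat3 in every case, while all 20 were lower without overlap (41.4% of all genes were).

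**Figure D2:**
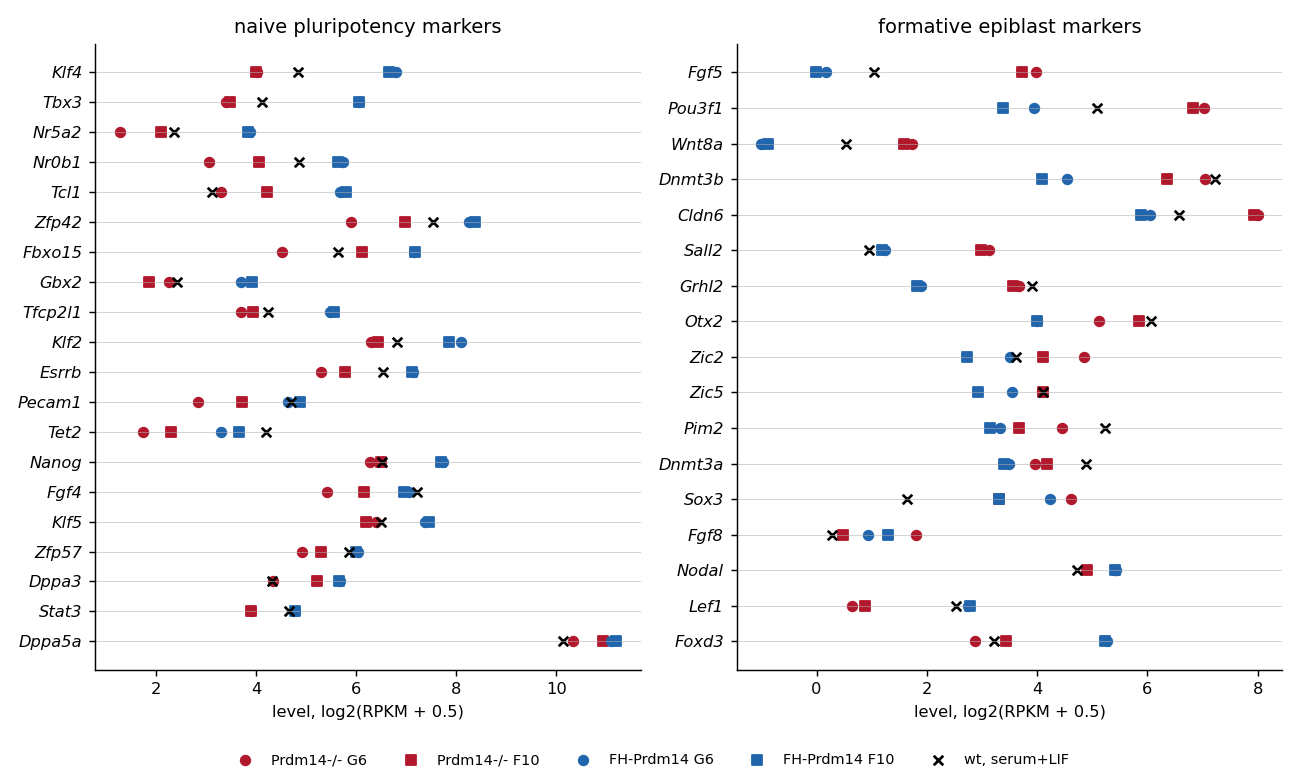
Levels of the 20 naive and 17 formative markers, log2(RPKM + 0.5), in the Prdm14-/- (red), FH-Prdm14 (blue) and wt serum+LIF (cross) libraries, circles for clone G6 and squares for F10. Every naive marker has both red points to the left of both blue points, and Fgf5, Pou3f1 and Wnt8a at the top of the right panel have the largest opposite gaps.

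The core factors changed less. Of 13 genes of general pluripotency, 3 fell, Tdgf1 (-1.43), Pou5f1 (-0.94) and Sall4 (-0.75), and 2 rose, Dnmt3l (0.71) and Lin28a (0.71). Pou5f1 (Oct4), the central factor, remained at 308 and 395 RPKM in Prdm14-/- cells against 634 and 709 RPKM in FH-Prdm14 and 585 RPKM in wt cells, and Tdgf1, a Nodal coreceptor, was at 99.7 and 179 RPKM against 351 and 372 RPKM. Sox2 was at 286 and 346 RPKM against 481 and 449.9 RPKM, a difference of -0.56 that was not called. When 1 library was omitted, 0, 2, 0 and 1 of the 13 were called lower and 0, 1, 0 and 0 higher. Of 14 tested genes of LIF signalling and its targets, 5 fell and 2 rose (median -0.53). The receptor gene Lifr was at 3.55 and 6.24 RPKM against 10.8 and 12.9 RPKM (-1.24) and Stat3, the transcription factor it activates, at 14.4 and 14.4 RPKM against 27.0 and 27.0 RPKM (-0.89). The target genes Klf4, Gbx2 and Tfcp2l1 fell with them, whereas Socs3, the feedback inhibitor, was at 42.1 and 43.8 RPKM against 58.4 and 61.3 RPKM (-0.47, not called) and Junb (0.77) and Cish (0.64) rose. After omission of 1 library, 1, 4, 2 and 4 of these genes fell and the 2 that rose were not called.

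Formative epiblast genes were higher in Prdm14-/- cells. Of 17 markers, all tested, 11 rose (10.6% of all genes tested did), 1 fell and 5 were not called, with a median of 1.36. Fgf5, the ligand that marks the epiblast around implantation (chromosome 5, 98683203 to 98706049 in mm9), was at 15.3 and 12.8 RPKM in Prdm14-/- and 0.622 and 0.497 RPKM in FH-Prdm14 cells, a log2 difference of 3.78 (SE 0.23). The wt serum+LIF library had 1.56 RPKM. Pou3f1 (Oct6), a POU factor of the same stage, was at 130.3 and 114 RPKM against 14.9 and 9.86 RPKM (3.28, SE 0.39) and at 33.3 RPKM in wt cells. Wnt8a, a Wnt ligand of the epiblast, was at 2.84 and 2.51 RPKM against 0 and 0.0455 RPKM (2.60, SE 0.23). Fgf5 and Wnt8a, 2 of the 11, passed the filter through the knockout alone. In these 3 genes the wt library lay between the groups.

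For Dnmt3b the order differed. This de novo DNA methyltransferase (chromosome 2, 153475186 to 153513466 in mm9) was at 131 and 81.4 RPKM in Prdm14-/- and 22.8 and 16.6 RPKM in FH-Prdm14 cells (2.38, SE 0.37), but at 149.5 RPKM in wt serum+LIF and 182 and 198 RPKM in the E294K lines, above both groups. Otx2, which directs enhancers of this state (34.2 and 57.1 RPKM against 15.5 and 15.4 RPKM, wt 66.6), Grhl2 (12.3 and 11.4 RPKM against 3.21 and 3.02 RPKM, wt 14.4), Dnmt3a (15.0 and 17.7 RPKM against 10.8 and 10.0 RPKM, wt 29.0) and Pim2 (21.5 and 12.3 RPKM against 9.53 and 8.37 RPKM, wt 37.2) had the same order. For these 5 genes the rescue lay further from wt serum+LIF cells than the knockout did. Cldn6, a tight junction claudin (255 and 243 RPKM against 66.0 and 58.6 RPKM), and Sall2 (8.26 and 7.40 RPKM against 1.87 and 1.76 RPKM) were above the 94.2 and 1.44 RPKM of wt cells in Prdm14-/- cells. Against the rest of the list, Lef1, the Wnt effector, fell (1.05 and 1.33 RPKM against 6.23 and 6.396 RPKM, -2.01), and Foxd3, a forkhead factor, was at 6.83 and 10.3 RPKM against 38.0 and 37.2 RPKM (-2.10, SE 0.78, not called). The 2 wt 2i+LIF libraries, which share in the spread, differed widely in Foxd3, at 53.5 and 6.25 RPKM. With the serum+LIF libraries alone, 2 of the 17 markers were called lower. Of the 17 markers, 7, 9, 8 and 8 rose with 1 library left out, and, of those that did not pass through the knockout alone, Pou3f1, Cldn6, Sall2, Grhl2 and Otx2 did so in all 4 of these fits, whereas Dnmt3b reached an adjusted p of 0.0579 (limma) in the least favourable of them.

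The writers and erasers of DNA methylation moved in both directions. Of 14 tested, 4 rose (Gadd45b, Dnmt3b, Dnmt3l and Dnmt3a) and 3 fell (Tet2, Tet1 and Apobec1), with a median of 0.12. Tet1, the main 5-methylcytosine dioxygenase of mESCs, was at 15.4 and 20.3 RPKM in Prdm14-/- and 47.4 and 48.3 RPKM in FH-Prdm14 cells (-1.41, SE 0.20). Dnmt3l, the cofactor of the de novo enzymes, was at 87.4 and 81.0 RPKM against 53.1 and 49.7 RPKM. Dnmt1 (-0.44), which maintains methylation, was not called. Gadd45b was at 123 and 92.0 RPKM against 18.0 and 18.6 RPKM. In the fits without 1 library, 1, 2, 2 and 2 rose and 2 fell each time. Polycomb repressive complex 2 deposits H3K27 methylation, and earlier reports link it to repression by Prdm14. The authors of these data found none of its components among the proteins purified with Prdm14. Among 11 genes of the complex, Rbbp7 rose (1.48), Ezh2 fell (-0.70) and 9 were not called. Of 12 tested ETO proteins and corepressors, Cbfa2t2, Tbl1xr1 (-0.88) and Ncor1 (-0.60) fell and Tbl1x rose (0.62). With 1 library left out, Rbbp7 kept its call each time, Cbfa2t2 without Prdm14-/- F10 only, and Ezh2, Tbl1xr1, Ncor1 and Tbl1x lost theirs.

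Genes of Fgf receptor signalling moved in both directions. Among the receptors, Fgfr2 was at 14.6 and 12.2 RPKM in Prdm14-/- and 2.13 and 1.35 RPKM in FH-Prdm14 cells, a log2 difference of 2.66 (SE 0.28), where wt serum+LIF cells had 2.95 RPKM. Fgfr1 rose from 18.4 and 16.9 to 47.7 and 28.7 RPKM (1.05) and Fgfr4 fell from 5.59 and 5.78 to 1.89 and 2.18 RPKM (-1.29). The ligand Fgf4 fell (42.3 and 70.4 RPKM against 133 and 124 RPKM, -1.23). The ERK feedback inhibitors Spry1 (60.6 and 57.1 RPKM against 12.9 and 11.2 RPKM, 2.24), Dusp5 (49.6 and 30.8 RPKM against 7.95 and 4.49 RPKM, 2.61), Dusp6 (1.44), Dusp4 (0.71) and Spred1 (0.93) rose. Spry4, also a feedback inhibitor, fell (-1.27), as did further genes that ERK activity is known to induce, Etv4 (8.12 and 8.64 RPKM against 31.1 and 31.6 RPKM, -1.84) and Egr1 (-1.38). In all, 8 of the 23 tested members rose, 6 fell and 9 were not called (median 0.12). When 1 library was omitted, 3, 4, 3 and 4 rose and 0, 4, 0 and 2 fell, and Fgfr2, Dusp5 and Spry1 kept their calls.

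Nodal, BMP and Wnt genes also moved both ways. Of 21 tested genes of Nodal and BMP signalling, 6 rose and 2 fell (median 0.12). Lefty1, the Nodal inhibitor that Nodal itself turns on, was at 96.4 and 87.4 RPKM in Prdm14-/- and 14.9 and 12.6 RPKM in FH-Prdm14 cells (2.70, SE 0.44). Nodal itself was at 42.0 and 29.3 RPKM against 42.4 and 41.9 RPKM (-0.26, not called). The BMP targets Id1 (86.9 and 62.1 RPKM against 15.2 and 17.4 RPKM, 2.14) and Id2 (1.56) rose, while the activin subunit gene Inhbb fell (0.243 and 1.01 RPKM against 4.15 and 4.47 RPKM, -2.18). Of 20 tested Wnt ligands and targets, 4 rose and 5 fell, but 3 of the 20 passed the filter through the knockout alone and 4 through the rescue alone, so that these counts show little. The ligand Wnt4 rose (8.62 and 6.07 RPKM against 1.47 and 1.01 RPKM, 2.17) together with Wnt8a, Wnt7a (1.48) and the repressor gene Tcf7l1 (1.26). Notum, a secreted Wnt inhibitor and Wnt target (0.726 and 1.31 RPKM against 7.98 and 8.12 RPKM, -2.52), Wnt5a (-1.59), Wnt11 (-0.997), Lef1 and Ccnd1 (-1.001) fell. Axin2, the usual target of the canonical pathway, was at 5.75 and 2.91 RPKM against 7.86 and 6.84 RPKM and was not called. After omission of 1 library, 1, 4, 2 and 4 of the Nodal and BMP genes rose and 0, 2, 0 and 1 fell, and 2, 4, 2 and 2 of the Wnt genes rose and 3, 4, 3 and 3 fell.

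Genes of the contractile cytoskeleton were among the largest increases, most of them known targets of serum response factor (SRF), a factor that binds the CArG box and responds to free actin. Of 24 genes listed, 22 were tested (Actg2 and Mylk were too low), 17 rose and 5 were not called, with a median of 1.58, and all 22 were higher without overlap (29.5% of all genes were). Tagln, an actin-binding protein of smooth muscle (chromosome 9, 45737711 to 45744141 in mm9), was at 144 and 201 RPKM in Prdm14-/- and 8.54 and 5.32 RPKM in FH-Prdm14 cells (4.56, SE 0.37). Acta2, the smooth muscle alpha-actin, was at 28.5 and 27.7 RPKM against 2.12 and 0.511 RPKM (4.14, SE 0.56), and Thbs1 at 72.3 and 53.5 RPKM against 1.65 and 0.858 RPKM (5.20, SE 0.50). Tropomyosin 1 (Tpm1) was at 340.0 and 271 RPKM against 36.7 and 30.9 RPKM (3.15), Csrp1 at 147 and 154 RPKM against 39.7 and 39.5 RPKM and the calponin gene Cnn2 at 234 and 208 RPKM against 71.4 and 65.8 RPKM. In each of these genes both Prdm14-/- libraries were several times as high as either rescue.

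The abundant cytoplasmic actins changed less, Actg1 from 689 and 699 to 1557 and 1354 RPKM (1.06) and Actb from 915 and 905 to 1541 and 1287 RPKM (0.63, not called). Srf itself was at 47.3 and 39.8 RPKM against 26 and 23.3 RPKM (0.80, not called). The wt serum+LIF library lay below all 4 libraries for 14 of the 22 genes, among them Acta1 at 0.241, Acta2 at 0.171 and Tagln at 2.74 RPKM. The E294K lines had 4.12 and 3.06 RPKM of Acta1 and 20.9 and 26 RPKM of Tagln. In the fits without 1 library, 11, 13, 12 and 11 of the genes rose, and Acta1, Acta2, Thbs1, Tagln, Tpm1, Csrp1, Myl9, Cnn2, Tpm4 and Lmod1 did so in every case. Smooth muscle and fibroblasts express many of these genes. Summed over 15 fibroblast (feeder) markers, the level was 77.9 and 52.2 RPKM in Prdm14-/- and 48.5 and 41.6 RPKM in FH-Prdm14 cells. Of those 15, Dcn and Postn were at 0 in all 4 libraries, 7 were tested and, of these, only Loxl1 rose (6.10 and 4.83 RPKM against 1.54 and 1.33 RPKM), while Col1a1 was at 6.61 and 4.81 RPKM against 2.10 and 1.55 RPKM (1.41, not called).

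Promoters are shown for listed contractile genes whose 250 bases before the start held a CArG box, as the element through which SRF is known to act. The box was searched on both strands in RefSeq promoters of GRCm38.p6, 5′ to 3′ on the gene's strand, with the box in capitals.
Acta1, chr8:123894776-123895025, minus strand: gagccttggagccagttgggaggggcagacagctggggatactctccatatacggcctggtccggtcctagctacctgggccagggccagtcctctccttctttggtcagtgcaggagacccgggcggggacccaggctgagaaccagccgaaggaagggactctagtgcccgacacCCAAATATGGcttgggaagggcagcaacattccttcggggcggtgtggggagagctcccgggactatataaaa
Actc1, chr2:114052888-114052947, minus strand: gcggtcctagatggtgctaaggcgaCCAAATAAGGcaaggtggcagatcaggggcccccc
Cnn2, chr10:79988519-79988578, plus strand: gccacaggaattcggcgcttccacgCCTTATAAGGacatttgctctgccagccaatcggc
Myl9, chr2:156775278-156775337, plus strand: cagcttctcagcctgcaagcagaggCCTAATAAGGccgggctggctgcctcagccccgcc
Srf, chr17:46556210-46556269, minus strand: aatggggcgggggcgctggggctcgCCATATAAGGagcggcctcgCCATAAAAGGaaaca
Vcl, chr14:20929148-20929205, plus strand: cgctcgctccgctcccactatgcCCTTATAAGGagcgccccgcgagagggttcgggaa
Actg1, chr11:120348551-120348610, minus strand: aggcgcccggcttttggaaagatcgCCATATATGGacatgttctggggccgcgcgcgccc
The box of Acta1 lay at positions -73 to -64 from the start and that of Actg1 at -90 to -81, and the window of Srf holds 2 boxes. Actg2, Actb, Tagln, Thbs1 and Tgfb1i1 had no entry.

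A CArG box was in 1.47% of all 32851 promoter entries and in 1.37% of the 9443 tested genes with an entry. Among genes called higher by at least 2-fold with an entry it was in 19 of 586 (3.24%), and among those called lower by at least 2-fold in 9 of 602. The genes behind the 3.24% include members of the contractile list, such as Acta1, Cnn2 and Actg1, so that this share is not free of that list. In the contractile list a CArG box was in 7 of the 19 genes with an entry (36.84%), a share that is no independent evidence, as the list was made of known SRF targets. Of these 7 genes, Acta1, Cnn2, Myl9, Vcl (53.9 and 53.7 RPKM against 26.2 and 22.5 RPKM) and Actg1 rose, and Actc1 (2.92 and 6.22 RPKM against 1.96 and 0.697 RPKM, 1.48) and Srf were not called. A match of letters does not show binding, and the box was in 0 of 10 YAP target and 0 of 14 naive pluripotency genes with an entry.

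Targets of YAP, the coactivator of the Hippo pathway that works through TEAD factors, also rose. Of 15 listed and tested, 11 rose and 4 were not called (median 1.36). Cyr61, a secreted matricellular protein (chromosome 3, 145309935 to 145312949 in mm9), was at 212 and 206 RPKM in Prdm14-/- and 30.1 and 25 RPKM in FH-Prdm14 cells (2.91, SE 0.39), and its relative Ctgf at 115 and 104 RPKM against 23.8 and 19.3 RPKM (2.33, SE 0.59). Ankrd1, a cofactor of muscle and of YAP activity, was at 4.35 and 4.10 RPKM against 0.0441 and 0.0392 RPKM (3.12), and Amotl2, which holds YAP in the cytoplasm, at 233 and 141 RPKM against 27.4 and 26.3 RPKM (2.73). Yap1 itself rose slightly (80.05 and 63.9 RPKM against 49.8 and 48.8 RPKM, 0.53), and its partner Tead1 (0.50) and its paralog Wwtr1 (TAZ, 0.41) were not called. The wt library lay below all 4 for 10 of the 15. With 1 library left out, 4, 7, 4 and 6 rose, among them Cyr61, Amotl2 and Amotl1 in every case.

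Genes of epithelial structure were higher in Prdm14-/- cells. Of 13 tested genes of simple keratins and desmosomes, 10 rose and 3 were not called (median 1.56). Krt18 (chromosome 15, 101858647 to 101862457 in mm9) was at 575 and 466 RPKM in Prdm14-/- and 29.9 and 21.7 RPKM in FH-Prdm14 cells (4.32, SE 0.16, adjusted p = 6.68e-06 in limma), and its partner Krt8 (chromosome 15, 101827142 to 101834773) at 549 and 396 RPKM against 22.9 and 18.0 RPKM (4.49, SE 0.53). Krt19 was at 174 and 158 RPKM against 23.5 and 18.1 RPKM (2.98, SE 0.24) and Krt7 at 87.2 and 67.4 RPKM against 12.3 and 12.0 RPKM (2.61). The 4 keratin genes were thus 5-fold or more above the rescue in both clones, with no overlap, and above wt serum+LIF cells, which had 22.9, 52.2, 11.5 and 4.65 RPKM of Krt8, Krt18, Krt19 and Krt7. The desmosomal genes Dsc2 (6.42 and 5.61 RPKM against 0.599 and 0.611 RPKM), Dsp (33.5 and 21.5 RPKM against 5.10 and 4.76 RPKM) and Dsg2 (16.9 and 10.6 RPKM against 4.81 and 3.68 RPKM) rose as well. When 1 library was omitted, 6, 8, 6 and 7 of the 13 rose.

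Of 18 tested genes of the epithelial and mesenchymal switch, 9 rose and 3 fell (median 0.85). Those that rose are epithelial: the claudins Cldn3 (93.1 and 58.7 RPKM against 8.01 and 6.68 RPKM, 3.25), Cldn7 (2.03), Cldn6 and Cldn4 (239.7 and 229 RPKM against 60.4 and 58.7 RPKM), the factors Grhl2 and Ovol2 (1.27), Epcam (1.13), Esrp2 (1.09) and E-cadherin (Cdh1, 177 and 169 RPKM against 92.6 and 90.7 RPKM). Those that fell are mesenchymal: Zeb1, a repressor of E-cadherin (0.134 and 0.349 RPKM against 2.47 and 2.01 RPKM, -1.90), vimentin (Vim, 22.6 and 19.8 RPKM against 84.3 and 66.7 RPKM, -1.80) and fibronectin (Fn1, 109.5 and 91.2 RPKM against 184 and 183 RPKM, -0.87). Snai1 (0.25) and Twist1 (0.38), 2 other mesenchymal factors, were not called. The contractile genes thus rose in the same libraries in which vimentin fell. After omission of 1 library, 6, 7, 6 and 6 genes rose and Vim and Zeb1 fell each time, Zeb1 having passed through the rescue alone.

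Of 19 tested collagens and integrins, 8 rose and 2 fell (median 0.77). Itga3, a laminin receptor subunit, was at 102 and 59.1 RPKM against 17.8 and 13.7 RPKM (2.28), Col5a2 at 4.38 and 2.57 RPKM against 0.365 and 0.0732 RPKM and Col4a2 at 26.6 and 24.5 RPKM against 6.80 and 5.37 RPKM (1.99), while Itgb7 fell (2.48 and 5.39 RPKM against 17.7 and 16.6 RPKM, -2.07). In the fits without 1 library, 1, 4, 3 and 1 rose. Genes of the basement membrane, which parietal endoderm makes in quantity, gave 7 higher and 1 lower of 14 tested (median 0.52). Serpinh1, a collagen chaperone (113 and 85.9 RPKM against 17.7 and 17.1 RPKM, 2.47), Hspg2 (perlecan, 1.55) and Col4a1 (1.48) rose, Sparc rose by less (139 and 152 RPKM against 106 and 112 RPKM, 0.42, SE 0.13), and Nid1 fell (12.2 and 14.0 RPKM against 41.3 and 42.0 RPKM, -1.64). The laminin genes Lama1 (-0.93) and Lamc1 (0.20) were not called. With 1 library left out, 3, 2, 4 and 2 genes rose, and the adjusted p of Sparc reached 0.283 (limma).

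Markers of primitive endoderm, the lineage next to the naive epiblast, were mixed. Of 21 listed, 13 were tested, 7 rose and Hnf4a fell (-1.01), with a median of 0.72. Lrp2 (megalin, chromosome 2, 69262397 to 69424122 in mm9) was at 65.7 and 56.2 RPKM in Prdm14-/- and 4.23 and 3.43 RPKM in FH-Prdm14 cells (3.83, SE 0.26), Krt19 and Fgfr2 rose as above, and H19, an imprinted RNA (chromosome 7, 149761434 to 149764048), was at 646 and 389 RPKM against 51.4 and 52.0 RPKM (3.27, SE 0.48). Dab2, an endocytic adaptor, was at 4.29 and 5.28 RPKM against 0.992 and 0.657 RPKM. Most of the genes that rose are also expressed outside this lineage. The lineage factors were low: Gata6 was at 1.54 and 4.68 RPKM against 1.61 and 1.34 RPKM (0.72, not called), Gata4 at 1.78 and 5.69 RPKM against 1.03 and 0.917 RPKM (1.35), Sox17 at 0.800 and 2.68 RPKM against 1.29 and 0.827 RPKM (0.40, not called), and Sox7 and Pdgfra did not pass the filter. In all 3 tested factors Prdm14-/- F10 was above G6, which differed little from the rescue in Gata6 and Sox17. When 1 library was omitted, 6, 5, 6 and 5 of the 13 rose.

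The trophoblast list gave 7 higher of 13 tested and 6 not called (median 1.29), and 4, 8, 5 and 5 higher with 1 library left out. Apart from keratins, Peg10, an imprinted gene of the placenta, was at 290.4 and 128 RPKM in Prdm14-/- and 26.6 and 22.1 RPKM in FH-Prdm14 cells (2.97), Cited1 at 6.93 and 3.33 RPKM against 0.871 and 0.637 RPKM, Gata3 at 3.73 and 2.01 RPKM against 0.533 and 0.323 RPKM (1.82) and Eomes at 5.50 and 4.76 RPKM against 2.41 and 2.49 RPKM (0.93). Cdx2, Elf5, Plac1 and Tpbpa did not pass the filter, and Tpbpa was at 0 in all 4 libraries. Hand1 was at 7.68 and 1.48 RPKM against 1.19 and 1.09 RPKM, high in clone G6 alone, and was not called. Tfap2c (-0.36) and Gata2 (-0.97) were not called either. The summed level of the list was 1605 and 1131 RPKM against 173 and 147, and most of it was keratin in Prdm14-/- cells. Early mesoderm and neural genes were few: of 14 primitive streak genes 5 passed the filter, and T and Mixl1 did not. Eomes was called higher but lost its call without any 1 library, and Wnt3 and Hand1 were called higher without Prdm14-/- F10. Of 12 neural genes 5 passed, with Nes (nestin) higher at 26.9 and 33.9 RPKM against 6.18 and 4.78 RPKM, a call kept without any 1 library. Ncam1, which passed through the rescue alone, was at 0.521 and 0.339 RPKM against 1.38 and 1.33 RPKM and was not called without any 1 library.

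Imprinted genes, expressed from 1 parental allele, gave 9 higher and 3 lower of 28 tested (median 0.03). Besides H19 and Peg10, Igf2, the growth factor that neighbours H19, was at 21.2 and 12.7 RPKM in Prdm14-/- and 2.09 and 1.65 RPKM in FH-Prdm14 cells (2.84), Sgce at 19.6 and 19.8 RPKM against 1.91 and 2.47 RPKM (2.92) and Nnat at 89.4 and 69.5 RPKM against 15.0 and 11.6 RPKM (2.54). Sgce and Peg10 are neighbours on opposite strands, and as the strand of the counts is not stated their reads may not be fully separate. Ddc fell (0.454 and 1.72 RPKM against 6.11 and 7.32 RPKM, -2.31) with Phlda2 (-0.95) and Slc22a18 (-0.80), whereas Igf2r (-0.35) and Grb10 (-0.30) were not called. H19 and Igf2, which share enhancers and are silenced on opposite alleles, thus rose together. After omission of 1 library, 4, 8, 7 and 7 of the 28 rose.

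Genes of the 2-cell-like state, a rare state of mESCs that resembles the 2-cell embryo and is driven by Dux, were higher in FH-Prdm14 than in any other condition. Of 26 listed, 20 passed the filter, 10 of them through the FH-Prdm14 libraries alone, which had to differ, so that a count of calls over this list shows little and single genes are described. Sp110 (chromosome 1, 87473474 to 87495392 in mm9) was at 1.66 and 1.90 RPKM in Prdm14-/- and 44.2 and 25.7 RPKM in FH-Prdm14 cells (-3.91, SE 0.35, adjusted p = 0.000290 in limma). Zscan4a, of a family that protects telomeres in such cells, was at 0.879 and 1.07 RPKM against 24.7 and 13.5 RPKM (-3.67, SE 0.37). Dux itself was at 0.979 and 0.885 RPKM against 24.1 and 11.7 RPKM (-3.60, SE 0.34), Zfp352, a zinc finger gene of the 2-cell embryo, at 0.191 and 0.138 RPKM against 8.16 and 4.95 RPKM (-3.37) and Tmem92 at 1.04 and 1.13 RPKM against 22.2 and 12.1 RPKM (-3.41). In all of them FH-Prdm14 G6 was the higher of the rescue lines, as it was for Prdm14.

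Values in the other conditions lay with the knockout. The wt serum+LIF library had 0.991 RPKM of Sp110, 0.614 of Zscan4a, 1.09 of Dux and 0.0836 of Zfp352. The wt 2i+LIF libraries had 0.509 and 0.308 RPKM of Dux, and the E294K lines, with as much Prdm14 RNA as the rescue, 1.21 and 1.36 RPKM of Sp110 and 0.496 and 0.752 RPKM of Dux. Summed over the 26 genes, the level was 456 and 265 RPKM in FH-Prdm14, 35.7 and 35.9 in Prdm14-/-, 27.7 in wt serum+LIF and 29.8 and 30.2 in the E294K lines. The Zscan4, Usp17l and Tdpoz genes have near-identical copies, so that their single values are uncertain, whereas Sp110, Tmem92, Zfp352 and Dcdc2c (11.2 and 12.5 RPKM against 159.8 and 96.5 RPKM) showed the same difference. Sp110, Tmem92, Dcdc2c and Zscan4a, which did not pass through the rescue alone, kept their calls without any 1 library. More cells in this state and more RNA per cell cannot be told apart. Gm4971, Gm8994 (10.3 and 8.12 RPKM against 237 and 127 RPKM) and D17Ertd648e (12.2 and 12.5 RPKM against 198 and 128 RPKM), the other predicted genes or clones among the largest decreases, were likewise higher in FH-Prdm14 than in any other library, with 1.36 RPKM of Gm8994 and 5.69 of D17Ertd648e in wt serum+LIF cells.

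**Figure D3:**
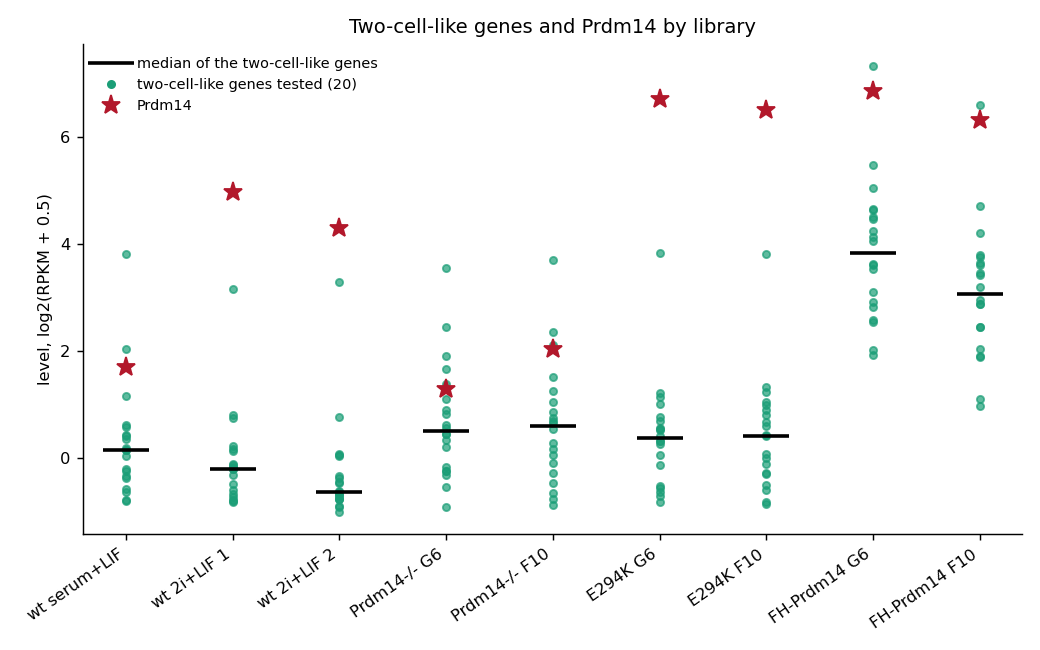
Levels of the 20 tested two-cell-like genes (points), their median (bar) and Prdm14 (star) in 9 libraries, log2(RPKM + 0.5). Prdm14 is high in the 2 E294K and the 2 FH-Prdm14 libraries, at 79.8 to 116 RPKM, and the two-cell-like genes are high in the FH-Prdm14 libraries only among the 9 shown.

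Genes of germ cells moved less. Of 14 tested primordial germ cell genes, 3 fell and 1 rose (median -0.18). Kit, the receptor of stem cell factor (chromosome 5, 75970941 to 76052747 in mm9), was at 6.32 and 7.74 RPKM in Prdm14-/- and 67.6 and 67.9 RPKM in FH-Prdm14 cells (-3.19, SE 0.21) against 9.74 RPKM in wt serum+LIF cells. Dazl, an RNA-binding protein of germ cells, was at 2.88 and 3.86 RPKM against 13.4 and 11.2 RPKM (-1.73) and Nanos3 at 0.945 and 1.07 RPKM against 2.03 and 3.32 RPKM (-1.04). Dnd1 rose (32.1 and 28.7 RPKM against 14.4 and 14.0 RPKM). Prdm1 (Blimp1) was at 4.33 and 4.24 RPKM against 6.39 and 6.80 RPKM (-0.57, not called). Kit and Dazl kept their calls without any 1 library, Nanos3 without Prdm14-/- G6 only, and Dnd1 lost its call each time. Kit and Dazl were at 55.1 and 38.9 RPKM and 16.3 and 11.6 RPKM in wt 2i+LIF cells, so that the rescue in serum+LIF was near the level of 2i+LIF and the knockout near that of wt serum+LIF cells (2.25 RPKM of Dazl). Of 23 tested genes of germline genome defence and meiosis, 8 fell and 15 were not called (median -0.59), among them Stra8 (1.24 and 2.41 RPKM against 6.47 and 4.75 RPKM, -1.43), Hormad1 (-1.29), Taf7l (-1.11) and Piwil2 (-0.96), and 1, 5, 1 and 2 fell with 1 library left out. Of 13 Rhox homeobox genes, a cluster on the X chromosome, 5 were tested. Rhox13 fell (-0.90), and Rhox7 (-1.73) and Rhox1 (-1.65) were lower but passed the filter through the rescue alone. Without any 1 library Rhox13 lost its call, and of the 5 genes Rhox7 alone kept it.

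Genes of the interferon response rose in 9 and fell in 2 of 13 tested (median 1.21). Psmb8, a subunit of the immunoproteasome (chromosome 17, 34334666 to 34338399 in mm9), was at 26.2 and 24.3 RPKM in Prdm14-/- and 1.53 and 0.961 RPKM in FH-Prdm14 cells (3.90, SE 0.32). Oasl2 was at 5.99 and 9.74 RPKM against 1.34 and 1.28 RPKM (2.17), Bst2 (tetherin) at 524 and 478 RPKM against 154 and 146 RPKM (1.74), and the class I gene H2-K1 at 63.5 and 50.1 RPKM against 22.9 and 18.5 RPKM (1.43). Stat2, a signal transducer of the pathway, fell (a difference of -0.56). The classic early response genes Ifit1, Ifit2, Ifit3, Rsad2, Irf7 and Usp18 did not pass the filter. The wt library lay between the groups for 10 of the 13, and 5, 6, 5 and 5 rose with 1 library left out.

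Genes of glycolysis and the response to hypoxia gave 10 higher and 3 lower of 31 tested (median 0.32). The glucose transporter gene Slc2a1 was at 762 and 554 RPKM in Prdm14-/- and 189 and 182 RPKM in FH-Prdm14 cells (1.81), Pfkfb3, a regulator of glycolytic flux, at 25.7 and 14.6 RPKM against 5.70 and 4.24 RPKM (1.88), and Adm at 2.93 and 4.63 RPKM against 0.733 and 0.551 RPKM. Pfkp fell (28.5 and 50 RPKM against 111 and 120.0 RPKM, -1.60), and the enzymes Pgk1 (0.44) and Ldha (0.32) were not called. In the fits without 1 library, 1, 5, 3 and 3 rose. Of 24 tested genes of cholesterol synthesis and uptake, 4 rose, among them Fdps (0.56) and Sc5d (0.55), and 0, 1, 1 and 1 did so with 1 library left out. Of 17 p53 targets 5 rose and 1 fell, the largest changes being Perp (78.2 and 49.2 RPKM against 23.5 and 23.7 RPKM) and Phlda3 (258 and 207 RPKM against 126 and 120.3 RPKM), and Cdkn1a (p21) was at 97.8 and 98.4 RPKM against 62.1 and 66.5 RPKM (0.61). With 1 library left out, 0, 2, 0 and 2 of the p53 targets rose.

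Lists of housekeeping genes had fewer calls than all genes. Of 69 tested nuclear genes of the respiratory chain, 5 fell and the others were not called (median -0.23), while 38 were lower without overlap (41.4% of all genes were). Of 83 cytoplasmic ribosomal protein genes, 3 fell, the paralogs Rpl10l, Rpl39l and Rpl3l (-1.59, -1.33 and -1.29), and the others were not called (median -0.09). Of 29 tested replication-dependent histone genes, 0 were called in limma, 0 had an unadjusted p under 0.05 and 0 were called with voom on the reads (median -0.42). This lack of calls shows little, as the shared spread was wide, with an SE of 1.14 for Hist1h2bk at a difference of -1.37. The summed histones were at 70.4 and 1241 RPKM in the 2 wt 2i+LIF libraries, which enter that spread. Without overlap 13 of the 29 were lower and 2 higher, and 6 passed the filter through the rescue alone.

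**Figure D4:**
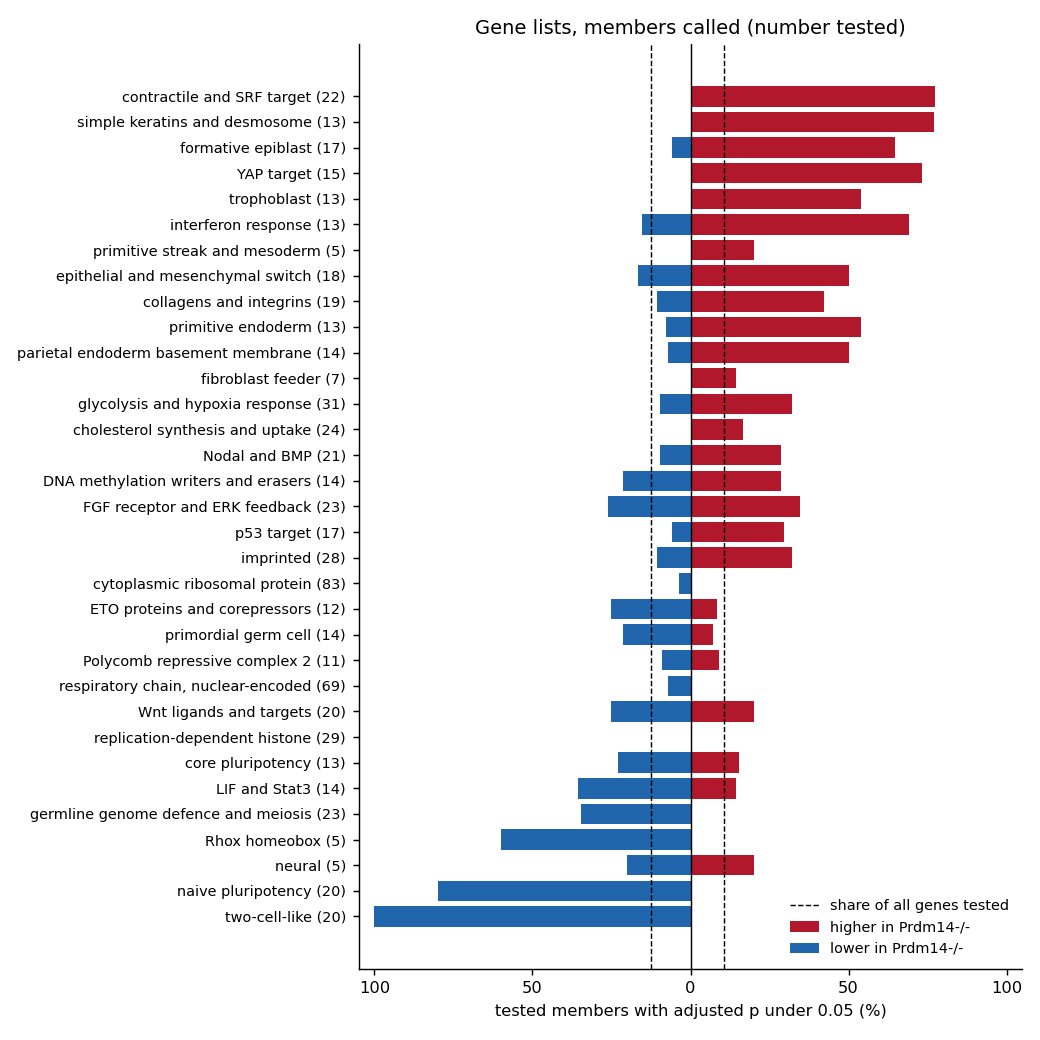
Share of the tested members of each of 33 gene lists called higher (red, to the right) or lower (blue, to the left) in Prdm14-/- than in FH-Prdm14 cells, in percent, ordered by the median difference, with the number tested in brackets and dashed lines at the shares of all genes tested (10.6% and 12.4%). Lists overlap in members, and the two-cell-like bar holds 10 genes that passed the filter through the rescue alone.

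The Prdm14 difference was set beside that of Mtgr1-/- minus FH-Mtgr1, which shares no library with it. In the Mtgr1 pair 3182 of the 12635 genes were higher (25.2%) and 3191 lower (25.3%). Among genes called in both, 641 were higher in both knockouts, 606 lower in both, 189 higher in Prdm14-/- and lower in Mtgr1-/- cells, and 194 the other way. The difference of the 2 differences was tested in the same fit and called for 3560 genes (28.2%), 1626 with the larger value in the Prdm14 pair (12.9%) and 1934 with the smaller (15.3%). The clone labels A3 and C1 enter this test. With the block kept within the Prdm14 lines only it called 3892 genes, and without Mtgr1-/- C3, the Mtgr1 library with low Rmrp, 3202.

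The contractile genes and keratins moved in both pairs. Acta1 differed by 4.27 (SE 0.51) in the Mtgr1 pair and Tagln by 3.36, and of the 22 contractile genes 17 rose there, while 4 (Thbs1, Tpm1, Myl9 and Lmod1) had a larger and 1 (Actn1) a smaller difference in the Prdm14 pair. Krt8 (4.004) and Krt19 (3.78) rose in the Mtgr1 pair with no difference between the pairs called, Dsp (4.05) and Krt7 (3.82, difference between the pairs -1.22, adjusted p = 0.0388 in limma) rose by more, whereas Krt18 rose by less (1.91, difference between the pairs 2.41, adjusted p = 0.000376 in limma). Tbx3 (-2.34), Tcl1 (-1.71) and Esrrb (-1.20) fell in both pairs, with no difference between the pairs called.

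The 2-cell-like genes differed between the pairs. In the Mtgr1 pair their median was 0.30. Sp110 differed by -0.18 in the Mtgr1 pair (difference between the pairs -3.73, SE 0.45), Dux by -1.06 (difference -2.53) and Tmem92 by 0.05 (difference -3.47), and these differences were called. Of the naive genes, 6 fell by more in the Prdm14 pair, Klf4 (-0.12 in the Mtgr1 pair, difference -2.60), Nr5a2, Zfp42, Gbx2, Klf5 and Stat3, and Dppa5a by less. The FH-Mtgr1 libraries were themselves low in some of these. They had 7.24 to 7.61 RPKM of Klf4, 1.11 to 1.38 of Nr5a2 (1.0998 in C3) and 1.23 to 1.55 of Gbx2, below both Prdm14-/- libraries. For Zfp42 they had 84.5 to 94.7 RPKM, between the Prdm14-/- libraries. The larger fall thus does not show lower naive genes in Prdm14-/- than in Mtgr1-/- cells. Among formative genes Otx2 moved in opposite directions (1.49 and -1.39, difference 2.88, adjusted p = 0.000631 in limma), and Fgf5 rose by 3.78 and 2.21 (difference 1.57). Gata4 (1.35 and -1.75), Gata6 (0.72 and -1.59) and Apoe (0.49 and -2.75) of primitive endoderm likewise had opposite signs, and their differences between the pairs were called.

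Glycolytic and ribosomal protein genes were lower in the Mtgr1 pair (22 of 31 and 77 of 83 fell), and the Prdm14 pair had the larger value, by the test of the difference, for 20 of the 31 and 29 of the 83. Rmrp was between 19.3 and 452 RPKM in Mtgr1-/- and between 440 and 1996 RPKM in FH-Mtgr1 libraries, and lay together in the 4 Prdm14 libraries. Its part in these 2 lists was not tested. Of the 23 germline genes, 20 fell in the Mtgr1 pair and 11 had the larger value in the Prdm14 pair.

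**Figure D5:**
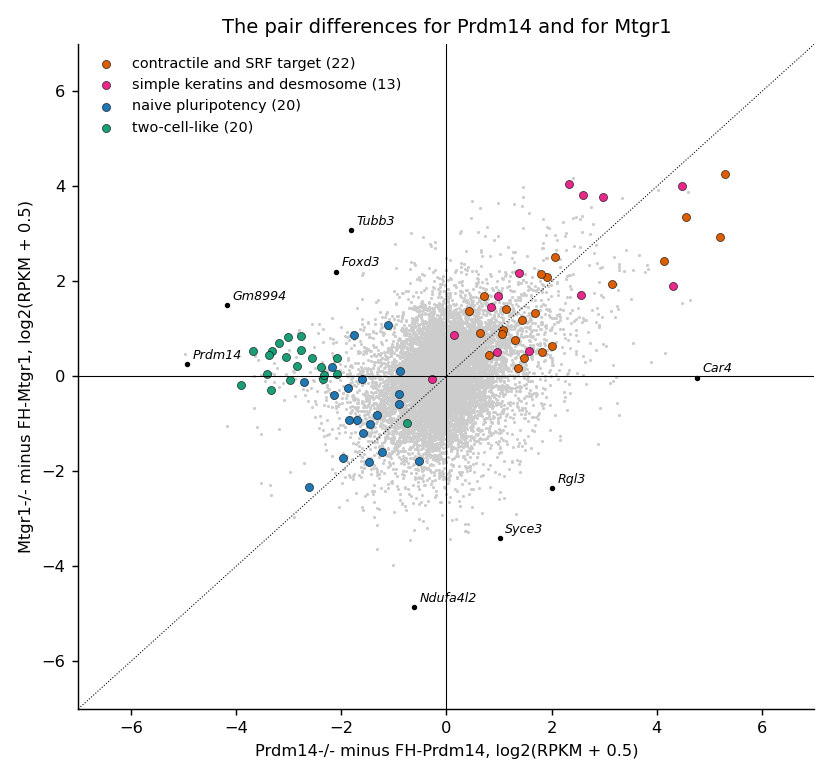
Log2 differences of the Prdm14 pair (x axis) and of the Mtgr1 pair (y axis), each knockout minus its rescue on log2(RPKM + 0.5), for 12635 genes, with 4 lists coloured and the genes with the largest difference between the pairs labelled. Contractile genes and keratins lie at the upper right, and two-cell-like genes lie far left at about 0 on the y axis.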

How the data were processed

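RNA was selected with oligo-dT and sequenced single-end, with 76 bases on a NextSeq or 51 bases on a HiSeq, and which instrument read which library is not given in the sources used here. The authors aligned reads with Tophat to mm9, counted them over RefSeq genes with HTSeq and deposited RPKM values per gene and library. The submitters' processing notes name the builds mm9 and GRCm38. Whether reads were counted by strand is not given in the sources used here. Whole reads could be computed back for 100.0% of the values (tolerance 0.01), which gave the depth of each library. Of the series, 11 ChIP-seq samples were left aside and are not analysed here.

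RPKM values were tested on log2(RPKM + 0.5) with limma 3.58.1 in R 4.3.3 (linear model with an intensity trend over all 15 libraries, 1 mean per condition and terms for the clone, 5 residual degrees of freedom), on genes with at least 1 RPKM in at least 2 of the 4 compared libraries, with Benjamini-Hochberg adjustment. The same fit tested the difference between the Prdm14 and the Mtgr1 pair. Clones pair the libraries by origin as the labels give it. Over the tested genes, the deviations of same-clone Prdm14-/- and FH-Prdm14 libraries from their means had a correlation of 0.336. For same-clone Prdm14-/- and E294K libraries it was 0.053, and for FH-Prdm14 and E294K libraries 0.092, so that the clone terms had little in common there. The procedure was tested on simulated data. Named were 14 genes of the study's question, the 10 largest changes in each direction (adjusted p under 0.05, no overlap, mean of at least 2 RPKM), 2 to 4 members per list with the largest differences and 5 genes per direction for the difference between the pairs. Other genes, among them Ddx3y, Rmrp, Sox2, Socs3, Nodal, Axin2, Srf, Yap1 and further list members, were chosen after their values were seen. Some genes that the rule names are not reported here. The comparison, its members and the 33 lists were chosen with earlier results of these data known. Alternatives were other pseudocounts, filters, scalings and sets of libraries, voom on the reads, a GC adjustment, no block and each library left out. Promoter sequences came from RefSeq on GRCm38.p6 and were matched by symbol, and gene positions are those of GENCODE M1 on mm9 (NCBIM37). Python 3.11.15, pandas 2.3.3, numpy 2.4.6 and matplotlib 3.10.9 were used.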

Additional observations from a re-analysis of the deposited data

Results flagged for a closer look

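The difference between knockout and rescue itself differed between the Prdm14 and the Mtgr1 pair for 3560 genes by the test of the difference in limma. The 5 genes with the largest excess in the Prdm14 pair were Car4 (difference between the pairs 4.79, SE 0.66), Syce3 (4.42), Rgl3 (4.37), 2610528J11Rik (4.31) and Ndufa4l2 (4.25). Car4 rose in Prdm14-/- cells (209.9 and 156 RPKM against 7.60 and 5.00 RPKM) and differed by -0.03 in the Mtgr1 pair. Syce3, a gene of the meiotic synaptonemal complex, was at 9.36 and 15.8 RPKM against 5.21 and 6.38 RPKM and differed by -3.41 in the Mtgr1 pair, and Rgl3, a Ral exchange factor, was at 8.83 and 8.64 RPKM against 1.68 and 1.93 RPKM and differed by -2.36. For Ndufa4l2, a hypoxia-induced gene of mitochondria, the Prdm14 pair differed by -0.61 and the Mtgr1 pair by -4.86, so that its excess comes from the fall in the Mtgr1 pair.

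The 5 genes with the largest deficit were Gm8994 (-5.67), Gm4971 (-5.44), Prdm14 (-5.18), Tubb3 (-4.89) and Foxd3 (-4.30). Prdm14 is the gene put back in the one pair and not in the other. Tubb3, a neuronal tubulin, was at 15.6 and 15.7 RPKM against 57.1 and 55.5 RPKM in the Prdm14 pair (-1.81, not called) and differed by 3.07 in the Mtgr1 pair, and Foxd3 differed by -2.10 (not called) and 2.21. The 2 wt 2i+LIF libraries, which share in the spread, had 37.2 and 5.85 RPKM of Tubb3 and 53.5 and 6.25 RPKM of Foxd3.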

How the results depend on the processing

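Of 227 single genes followed, 178 were called, and 0 of these changed direction in limma under any of the 20 alternatives, but 93, 52, 82 and 71 of the genes followed lost their call without Prdm14-/- G6, Prdm14-/- F10, FH-Prdm14 G6 and FH-Prdm14 F10. Of all called genes, 1333 of the 1335 higher and 1570 of the 1571 lower had no overlap between the groups. A change of direction was thus hardly possible for them, and its absence says little. Among genes that were not called, leaving out 1 of the 4 moved the difference of Rhox6 (0.48) between -0.11 and 1.07, of Grb10 (-0.30) between -0.70 and 0.094, of Snai1 (0.25) between -0.044 and 0.55 and of Sox17 (0.40) between -0.25 and 1.05. The low value came without Prdm14-/- G6 for Rhox6 and Snai1 and without either F10 library for Sox17, and the high value without Prdm14-/- F10 for Grb10. The number of genes called between Prdm14-/- and FH-Prdm14 (2906, of which 1335 higher and 1571 lower) depended on which libraries set the spread. It was 6286 (2614 and 3672) with the 4 compared libraries alone and the block, 4421 (1871 and 2550) with the serum+LIF libraries alone, and 652 to 1493 (347 to 694 higher, 305 to 799 lower) with 1 of the 4 left out, where a lone library is assumed to vary like the others. The stricter filter left 1014 lower among 11246 genes, and asking for 2-fold left 1650 (804 and 846). Median-of-ratios scaling called 2898 genes but turned the balance to 1533 higher and 1365 lower, as did the GC adjustment (1704 and 1577). Without the replicate block, 3350 genes were called, 1275 of the higher and 1508 of the lower genes among them. The difference between the Prdm14 and Mtgr1 pairs was called for 4106 genes without the block and for 1189 to 1707 (617 to 778 higher, 569 to 936 lower) with 1 of the 4 left out. Chosen after seeing the data were the fits without the Mtgr1 libraries (2276 genes), without Mtgr1-/- replicate 3 (C3; 3209, of which 1494 higher and 1715 lower, and 3202 between the pairs, of which 1575 higher and 1627 lower) and with the block within the Prdm14 lines only (3162). The other alternatives stayed within 1.5 times of these counts. Values under about 1 RPKM rest on few reads, and 2 clones a side limit every call.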
